A study of Bos taurus with 15 samples.

Results

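LEUTX was compared with an empty control plasmid in primary bovine fetal fibroblasts, using 4 LEUTX and 4 control libraries of the 15 in the series. The members were chosen by transfected construct. The fibroblasts came from torso skin of a fetus aged 6 months and were used at passage 4. They were electroporated either with the vector pSF-CMV-Puro-COOH alone or with the same vector carrying the bovine LEUTX coding sequence, a peptide linker and a C-terminal 3xFLAG tag under the constitutive CMV promoter. Medium was changed at 24 h, puromycin was given at 4 µg per mL to both groups, and RNA was extracted at 72 h. The other 7 libraries carried wild-type (WT) ARGFX, with 4 libraries, or a truncating mutant ARGFX, with 3, and share the same 4 controls. All cultures came from a single fetus, and the transgene was driven far from its natural level and cell type, so the p-values below measure the spread between transfections of these cells and not between animals.

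LEUTX belongs to the ETCHbox group of PRD-class homeobox genes, which arose in placental mammals by duplication and divergence from the CRX gene. Homeobox genes encode transcription factors that bind DNA through a homeodomain. ETCHbox genes are known for expression in the preimplantation embryo, around the time its own genome becomes active, and for little or no expression in later tissues. Fibroblasts normally do not express them, which makes these cells a background in which genes that respond to the added factor can be read against an otherwise unchanged plasmid.

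The transgene was read first. LEUTX had 1, 0, 0 and 0 estimated counts in control libraries 1 to 4. In LEUTX libraries 1 to 4 it reached 1314, 1415, 1781 and 1621 CPM (counts scaled to the size of the library, here after TMM normalization), a mean of 1533 ± 209 (SD, n = 4). The groups were therefore fully separate, and the ratio of LEUTX to control was 171899, with a 95% counting interval of 30852 to 6789670 that rests on the single control count. The other ETCHbox rows stayed near the limit of detection. ARGFX did not exceed 5.67 counts in any of these 8 libraries, TPRX1 did not exceed 2, TPRX3 did not exceed 8, and TPRX2 had 0 in all of them.

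Libraries held 25947911 to 28163565 estimated counts in the control group and 26917853 to 35454192 in the LEUTX group. The share of the counts that differed between a pair of libraries was 5.41 to 12.1% among controls, 3.14 to 9.19% among LEUTX libraries and 15.2 to 19.7% between the groups. The groups were separate, since the closest control and LEUTX libraries differed more than any pair within a group. Whether a library was an outlier within its own group was not tested by these distances. Of 10 listed fibroblast markers, 5 could be read by symbol, namely COL1A1, COL1A2, COL3A1, FN1 and POSTN. Each was abundant in every library, with the lowest value 234 CPM for POSTN in LEUTX library 4. The other listed fibroblast markers had no identifier with a symbol. Markers of keratinocytes, endothelial, immune, skeletal muscle, melanocyte and fat cells had no identifier with a symbol and were not analysed here. In bulk RNA, fewer cells of a type and less RNA per cell cannot be told apart.

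The response was broad and close to balanced in number. Of 14264 genes tested, 1177 were upregulated with LEUTX (8.25%), 1 of them the transgene, and 1239 were downregulated (8.69%), where a call required an edgeR adjusted p under 0.05, more than a 1.5-fold change and an average over the 8 libraries of more than 5 CPM. With DESeq2 size factors the order was turned, with 1240 up and 1191 down, so neither direction can be called the more frequent. The median upregulated gene rose by 0.91 on the log2 scale and the median downregulated gene fell by 0.90. Over all tested genes the median log2 fold change was -0.03. In 2921 tested genes (20.5%) every LEUTX library lay above every control library, and in 3068 (21.5%) every LEUTX library lay below.

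The order of large increases and decreases depended on the level of the genes. Among called genes, fold changes over 2 were seen in 478 upregulated and 491 downregulated genes. Over 4-fold there were 95 and 169, over 8-fold 34 and 90, and over 64-fold 11 and 29. Without any limit on level, 172 genes were up and 159 down more than 8-fold, the opposite order. With genes grouped instead by their level in the higher of the 2 groups, a choice made after seeing the data, genes over 20 CPM that changed more than 1.5-fold numbered 872 up and 781 down, whereas those that changed more than 8-fold numbered 24 up and 75 down. Over 8-fold, the counts were 120 up and 134 down for genes over 1 CPM in the higher group, 55 and 101 over 5 CPM, and 8 and 37 over 100 CPM. The counts at 20 CPM stayed at 23 to 26 up and 74 to 78 down with DESeq2, with DESeq2 size factors and without any single library. Decreases over 8-fold outnumbered increases where the higher group was over 5, 20 or 100 CPM, and the counts were close at 1 CPM.

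**Figure D1:**
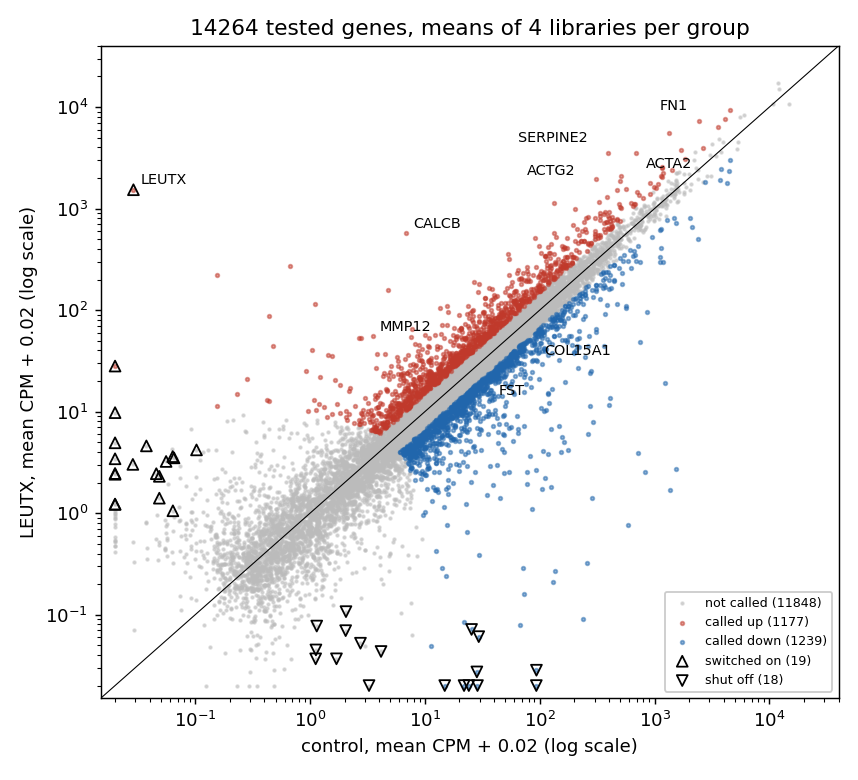
Mean CPM with LEUTX (vertical) against mean CPM in controls (horizontal), both on log scales after adding 0.02, for the 14264 tested genes, with 4 libraries in each mean. Red points are the 1177 upregulated and blue points the 1239 downregulated genes, open triangles mark the 19 genes switched on and the 18 shut off, and the line marks equal levels. The field of blue points below the line reaches further from it at control levels over 20 CPM than the red points do above it.

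Measured as reads moved, 15.6% of all counts lay in different genes with LEUTX than in controls. The 100 genes with the largest gains held 54.5% of the gain, and the 100 with the largest losses held 40.9% of the loss. LEUTX itself made up 0.947% of the gain, rank 15 among genes. FN1, which encodes fibronectin, ranked first, and COL1A2 and COL1A1, which were not called upregulated, stood at ranks 3 and 9. The chosen upregulated genes FN1, SERPINE2 (rank 6), ACTA2 (rank 7) and ACTG2 (rank 13) together held 7.48%. These shares are in counts, which grow with transcript length as well as with the number of transcripts.

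Genes switched on from no detectable expression were few. The class was set at no more than 3 counts in every control library, at least 10 counts in every LEUTX library and a mean of at least 1 CPM with LEUTX, so its direction is fixed by the rule and carries no test. It held 18 genes beside LEUTX, from 6021 genes that were silent in controls by this limit (0.316% with LEUTX counted). Most came on at a low level. Their mean with LEUTX was 1.03 to 28.1 CPM, with a median of 3.10, and 1 of the 18 exceeded 10 CPM. The replicates were close, with a coefficient of variation between 5.77 and 26.4%. In 8 of the 18, all 4 controls had 0 counts, and the increase was at least 10.5-fold to at least 245-fold against a floor of 3 counts per library.

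The most abundant of them was ENSBTAG00000009382.6, a gene without a symbol in the tables used here. It had 0 counts in all 4 controls and 29.9, 31.0, 26.3 and 25.05 CPM in LEUTX libraries 1 to 4. Every LEUTX library thus held at least 711 counts of a gene with none in any control, at least 245-fold higher. The next was ENSBTAG00000007583.6, which also had 0 counts in the controls and reached 9.05, 10.4, 9.96 and 9.58 CPM with LEUTX, at least 85.2-fold higher. Its mean over the 8 libraries was 4.87 CPM, so the expression threshold kept it out of the 1177.

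Genes shut off were as few. Under the mirrored rule, 18 of 12351 genes expressed in controls were shut off (0.146%). Their control means were 1.10 to 93.6 CPM with a median of 9.49, and 9 of the 18 exceeded 10 CPM, where CPM is not divided by transcript length. In 6 of the 18, all 4 LEUTX libraries had 0 counts, which puts the decrease at no less than 28.6-fold to 825-fold. The most abundant was ENSBTAG00000012406.6, with 63.9, 87.5, 119.6 and 103.2 CPM in control libraries 1 to 4 and a single count over all 4 LEUTX libraries. The control to LEUTX ratio was 11174, with a 95% counting interval of 2005 to 441386. ENSBTAG00000034349.4 had 73.4, 107.1, 83.9 and 108.9 CPM in the controls and 0 counts in every LEUTX library, at least 825-fold lower. The edges of the classes were narrow. The weakest switched-on gene had a mean of 1.03 CPM and the weakest shut-off gene 1.10 CPM, and genes silent in the same group that missed a limit of expression reached 1.04 and 0.661 CPM. Of expressed genes that missed the limit of silence, the nearest had 3.5 and 4 counts in their highest silent library.

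The same genes were read in the ARGFX libraries, which the choice did not use. The 18 switched-on genes stayed near silence there. No more than 3 counts were found in every WT ARGFX library for 11 of the 18 and in every mutant library for 15, and the highest mean was 4.62% of the LEUTX level with WT ARGFX and 7.08% with the mutant. The 18 shut-off genes were low with WT ARGFX as well. Their WT ARGFX mean was a median of 0.868% of the control mean (range 0 to 58.3%), under 10% in 14 genes, and every WT ARGFX library lay below every control library in 17. With the mutant the median was 18.6% (range 5.69 to 106%), under 10% in 5 genes, and all libraries lay below the controls in 16. The study removed another mutant library as an outlier because it clustered with WT ARGFX, so the mutant values rest on the libraries it kept. ENSBTAG00000012406.6 had 0.158 ± 0.0846 CPM with WT ARGFX (n = 4) and 15.1 ± 6.74 with the mutant (n = 3). Percentages of the control mean share the control libraries that chose the shut-off genes. Those of the LEUTX level share the LEUTX libraries, in which the switched-on genes were chosen for being expressed. Both are given as values only.

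By the same class limits, WT ARGFX switched on 0 genes beside its own transgene and shut off 5, and mutant ARGFX switched on 0 beside its transgene and shut off 0, against the same controls. The difference between constructs in these counts was not tested.

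**Figure D2:**
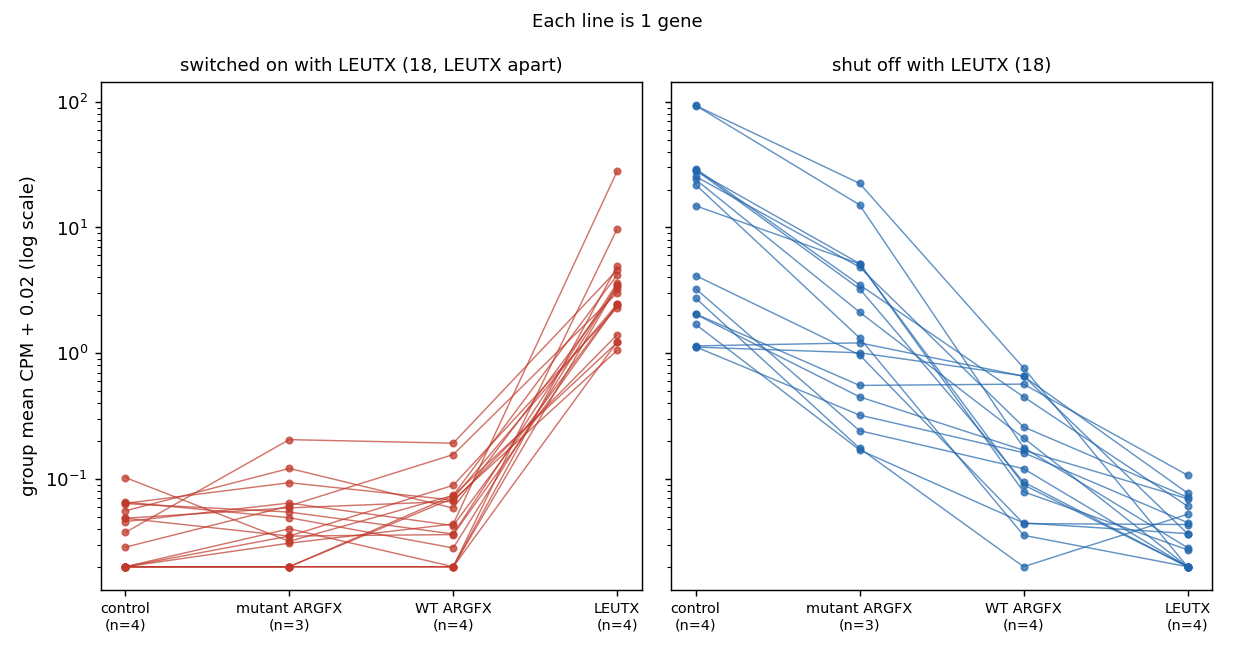
Mean CPM plus 0.02 on a log scale in control (n = 4), mutant ARGFX (n = 3), WT ARGFX (n = 4) and LEUTX (n = 4) libraries, 1 line for each gene. The 18 switched-on genes (left) lie near the bottom of the axis in the other 3 groups, whereas the 18 shut-off genes (right) lie below all controls in every library for 17 with WT ARGFX and 16 with the mutant.

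The graded changes were then read by control level, without the threshold on CPM. The background under that rule was 12.8% up and 14% down. Between 1 and 5 CPM in controls the shares were 17.1% up and 21.2% down, between 5 and 20 CPM 12.5 and 16.5%, and between 20 and 100 CPM 8.41 and 11.3%. They were 10.6 and 12.1% between 100 and 500 CPM, and 11.6 and 15.2% above 500 CPM. From 1 CPM upward the median log2 fold change of a group of genes lay between -0.09 and -0.0041. The median absolute log2 fold change fell from 0.50 in the lowest of these groups to 0.27 in the highest. Changes in both directions were thus found at every control level from 1 CPM, with smaller typical changes at higher CPM, where counts also scatter less.

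These shares depend on the level used for the grouping. When genes were grouped by the mean of both conditions, the order of the shares turned to more up than down in the 3 highest groups, with 10.1% up and 9.55% down at 20 to 100 CPM, 12.8 and 9.45% at 100 to 500 CPM, and 22.1 and 8.77% over 500 CPM. It did not turn at 1 to 5 CPM, with 18.4 and 20.8%, or at 5 to 20 CPM, with 12.01 and 17.1%. Below 1 CPM in controls, genes could enter the test through expression in another group, so the shares there are not a result about genes of low expression. At 0.1 to 1 CPM, 17.5% of the genes tested were up and 9.91% down. These shares became 11.7 and 8.37% when no filter on low counts was used, and 13.3 and 15.8% by the mean of both conditions. Of 114 genes tested under 0.1 CPM, 89.5% were up, against 6.76% of 3685 without the filter.

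Of the changes over 8-fold, 2 increases and 75 decreases were in genes over 20 CPM in controls, and at 1 to 5 CPM there were 17 and 33. The control level enters both this grouping and the change itself. Of the 172 increases, 151 were in genes under 1 CPM in controls, where the filter can admit genes through the group in which they are high. At 0.1 to 1 CPM there were 64 increases and 25 decreases with the filter, and 64 and 70 without it.

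**Figure D3:**
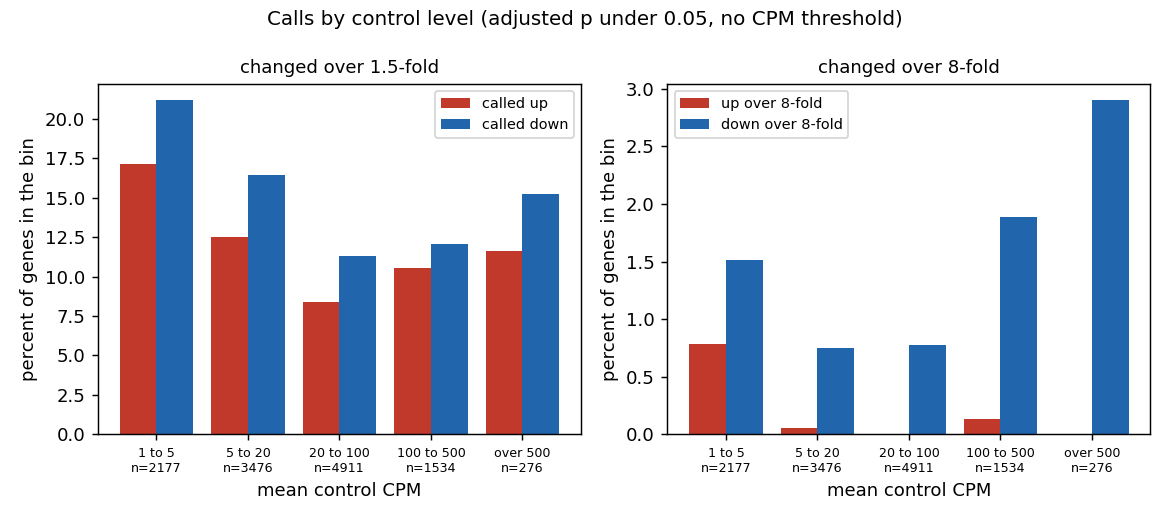
Percent of genes up (red) and down (blue) with LEUTX by mean control CPM, at a fold over 1.5 (left) and over 8 (right), with the number of genes under each pair of bars. Genes under 1 CPM in controls, some of which could enter the test only through another group, are left out. Blue bars are taller than red ones in every group shown, an order that turns in the 3 highest groups at 1.5-fold when genes are grouped by the mean of both conditions.

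Named genes could be read for 220 genes with a symbol. These are the part with a symbol, in the rows used here, of the study's list of genes raised by WT ARGFX, and the rest of that list was not used here. The study chose the list on these same samples and controls, so its direction with LEUTX is not independent evidence. Of the 220, 102 were upregulated with LEUTX (46.4%), 11 were downregulated (5%) and 107 were neither, beside 8.25% up and 8.69% down over all tested genes, and 19 of the 107 passed the p and fold limits but not the CPM threshold. The 11 downregulated genes all stood on that list of genes raised by WT ARGFX. They are therefore not a sample of the 1239 genes downregulated with LEUTX. The 220 had a median log2 fold change of 0.65. All counts of gene groups below come from within this set and carry that selection, and are to be read beside its 46.4% up and 5% down as well as the shares over all genes. Listed genes outside the set were not analysed here. The lists were written with earlier results of these data known, so the directions of their members are not independent evidence.

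Among the 220 genes with a symbol, the largest single change was in the group of secreted signals and receptors. CALCB, which encodes a calcitonin gene-related peptide that dilates vessels and acts as a neuropeptide, had 5.81, 8.52, 6.28 and 6.56 CPM in controls and 522, 543, 578 and 640 CPM with LEUTX. All LEUTX libraries stood far above all controls, and the log2 fold change was 6.39 ± 0.18 (SE, edgeR adjusted p = 8.31e-14). In the ARGFX libraries CALCB had means of 19.2 CPM with WT and 9.13 with the mutant. SEMA3E, a secreted guidance semaphorin, rose from 8.60 ± 2.29 to 39.5 ± 4.44 CPM (SD, n = 4 each). TMEM158, a membrane protein induced by Ras signaling, had 46.1, 31.9, 13.4 and 15.6 CPM in controls and 170, 194, 200 and 200 with LEUTX. Its controls were spread over more than 3-fold, but none came near the LEUTX libraries. Also upregulated were IL1RL1, the receptor for interleukin-33, at a log2 fold change of 1.13, and LFNG, a glycosyltransferase that modifies Notch, at 1.26.

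FST, encoding follistatin, which binds and neutralizes activins, was the member of this group that fell. It had 38.1, 36.1, 37.4 and 41.4 CPM in controls and 13.0, 12.4, 12.3 and 13.9 CPM with LEUTX. The 2 groups were narrow and did not overlap, and the log2 fold change was -1.57 ± 0.10 (SE, edgeR adjusted p = 1.9e-09). With WT ARGFX FST had a mean of 68.4 CPM, but its place among the readable genes itself required a rise with WT ARGFX. In all, 5 of 13 tested secreted signals and receptors rose, 1 fell and 7 did not pass. APOA1, the main protein of high density lipoprotein, was among the last, at 0.515 ± 0.0748 CPM in controls and 6.74 ± 1.18 CPM with LEUTX, since its mean stayed under 5 CPM.

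Proteases and their inhibitors included other large changes among the 220 genes. SERPINE2, protease nexin-1, which inhibits thrombin and plasminogen activators, had 407, 476, 322 and 362 CPM in controls and 3105, 3453, 3696 and 3885 CPM with LEUTX. Every LEUTX library was above every control, with a log2 fold change of 3.17 ± 0.15 (SE, edgeR adjusted p = 4.1e-11). MMP12, macrophage elastase, rose from 4.597, 3.76, 3.19 and 2.36 CPM to 43.6, 53.5, 62.7 and 62.1 CPM. ADAM12, a membrane metalloprotease, fell from 42.2 ± 8.15 to 24.5 ± 1.54 CPM. MMP3, stromelysin-1, had 2.57 ± 0.759 and 6.81 ± 1.06 CPM and stayed under the CPM threshold, which it passed only without control library 3 or 4. Of 6 tested members, 2 rose, 1 fell and 3 did not pass.

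Of 34 listed genes of actin, myosin and smooth muscle, 14 could be read by symbol, and all 14 rose, with a median log2 fold change of 1.15. The list was written with earlier results of these data known, and the 14 come from the genes raised by WT ARGFX. Their shared direction is therefore not independent evidence. ACTG2, the smooth muscle gamma actin, had 295, 401, 234 and 295 CPM in controls and 1649, 2032, 2002 and 2179 CPM with LEUTX. ACTA2, the alpha actin of smooth muscle and myofibroblasts, had 634, 859, 484 and 754 CPM in controls and 2979, 3650, 3518 and 3830 CPM with LEUTX. In both actins the lowest LEUTX library was more than 3 times the highest control. The log2 fold changes were 2.68 ± 0.17 for ACTG2 and 2.36 ± 0.19 for ACTA2 (SE, edgeR adjusted p = 9.43e-10 and 2.28e-08).

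Actins are near-identical in sequence, so part of their counts may have been assigned between paralogs by the quantification, and the split among them is uncertain. SYNC, syncoilin, which the list also holds, is a muscle intermediate filament protein and not an actin or myosin. It rose from 3.75 ± 0.711 to 26.6 ± 1.51 CPM. Regulators of contractile filaments rose as well, among them LMOD1, which nucleates actin in smooth muscle, with a log2 fold change of 1.77, SMTN, smoothelin, with 1.64, and CNN2, a calponin, with 0.94. The non-muscle myosin heavy chain MYH10 rose by 1.09 on the log2 scale and MYH9 by 0.90. MYH9 had 861, 445, 904 and 716 CPM in controls and 1665, 1774, 1110 and 900 CPM with LEUTX. The groups overlapped for MYH9 and for MYO9B, and for the other 12 they did not.

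**Figure D4:**
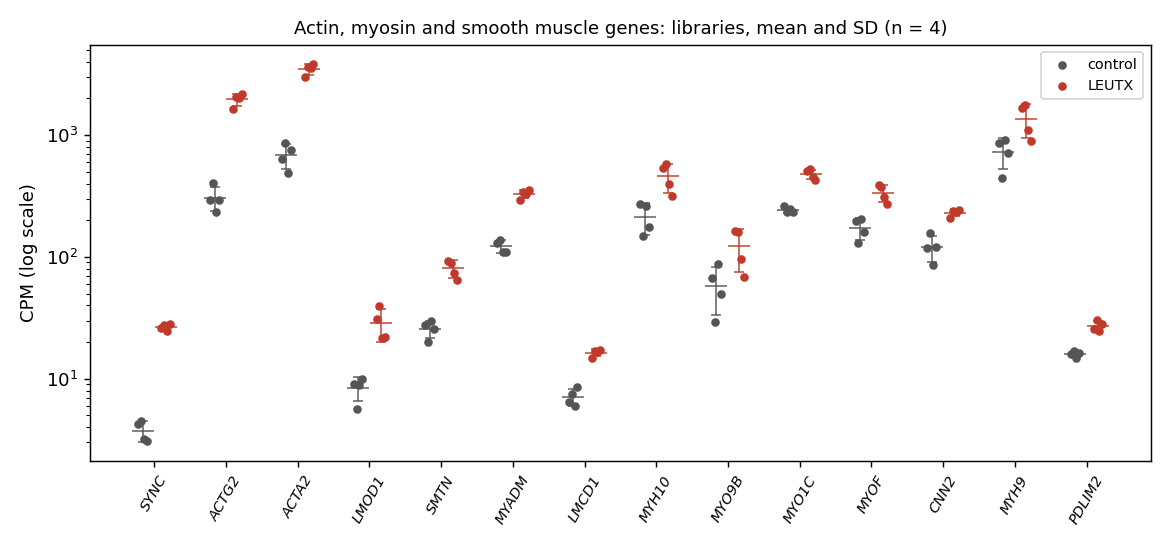
The 14 readable genes of the actin, myosin and smooth muscle list, which was written with earlier results of these data known. CPM is on a log scale for each of 4 control (gray) and 4 LEUTX (red) libraries. The mean and SD are shown, and genes are ordered by fold change. Red points lie above gray points for 12 of the 14, and overlap them for MYH9 and MYO9B.

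Tubulins and microtubule-binding proteins followed with 6 of 8 upregulated and 0 downregulated. TUBB6 and TUBB2B, beta tubulins, rose from 303 ± 50.6 to 800 ± 59.3 CPM and from 114 ± 18.6 to 280 ± 21.2 CPM. The tubulins share the limit given for the actins. EML2, a microtubule-binding protein, rose by 1.67 on the log2 scale with close replicates. MAP1B, a microtubule-associated protein best known in neurons, had 89.8, 44.4, 110 and 62.9 CPM in controls and 311, 367, 220 and 165 CPM with LEUTX. Its groups were separate, but LEUTX libraries 1 and 2 were well above libraries 3 and 4.

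Readable genes of the extracellular matrix included members that rose and members that fell. Of 30 listed collagens and collagen-processing genes, 14 could be read, of which 6 rose, 3 fell and 5 did not pass. Of 26 listed matrix glycoproteins and proteoglycans, 11 could be read, of which 4 rose, 2 fell and 5 did not pass. The shares that rose lay near or below that of the whole set of 220. FN1 had 2991, 1733, 3097 and 1997 CPM in controls and 8963, 9438, 6050 and 4508 CPM with LEUTX. The groups were separate, and the log2 fold change was 1.56 ± 0.26 (SE, edgeR adjusted p = 0.000104). For FN1, controls 1 and 3 were the higher controls and LEUTX libraries 1 and 2 the higher LEUTX libraries. The same library pattern was seen in other readable genes, among them MAP1B, MYH9, MYH10, MYO9B, COL11A1 and COL6A3. SERPINE2, ACTA2 and ACTG2 did not show it. The part of this library pattern in the size of those changes was not tested. COL11A1, a minor fibrillar collagen, rose from 118 ± 14.8 to 415 ± 112 CPM. P3H2, a collagen prolyl 3-hydroxylase, rose from 22.5 ± 3.37 to 72.8 ± 5.29 CPM, and IGFBP7, a secreted binding protein of the insulin-like growth factor family, from 263 ± 57.8 to 827 ± 39.3 CPM.

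Other matrix genes fell. COL15A1, a collagen of the basement membrane zone, had 102, 84.9, 96.2 and 91.8 CPM in controls and 35.6, 36.7, 29.2 and 24.9 CPM with LEUTX. COL6A3, a chain of microfibrillar collagen VI, had 1266, 877, 1417 and 997 CPM in controls and 747, 776, 545 and 467 CPM with LEUTX. Both were lower in every LEUTX library, with log2 fold changes of -1.57 ± 0.13 and -0.85 ± 0.20 (SE, edgeR adjusted p = 5.3e-08 and 0.00255). POSTN, periostin, fell from 442 ± 39.9 to 277 ± 39.8 CPM. With WT ARGFX the means of COL15A1, COL6A3 and POSTN were 171, 2099 and 839 CPM, above their control means. That direction was set by the choice of readable genes, all from the study's list of genes raised by WT ARGFX.

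COL3A1, the chain of collagen III, had 3130, 2954, 2503 and 2510 CPM in controls and 2008, 2156, 1622 and 1465 CPM with LEUTX. The groups did not overlap, but the log2 fold change of -0.61 ± 0.14 lay close to the fold threshold and missed it without control library 1 or 2 or LEUTX library 3 or 4, at -0.52 to -0.58. TGFBI, a secreted adhesion protein, rose by 0.68 on the log2 scale and missed the threshold without control library 3, at 0.56. The chains of collagen I did not pass. COL1A2 had 11935 ± 1326 and 17166 ± 2667 CPM with a log2 fold change of 0.52, and COL1A1 had 12029 ± 1612 and 15040 ± 2896 CPM with overlapping groups. COL1A2 passed only without LEUTX library 4, at 0.61. Of the 5 readable fibroblast markers, FN1 rose, COL3A1 and POSTN fell, and the collagen I chains did not pass.

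**Figure D5:**
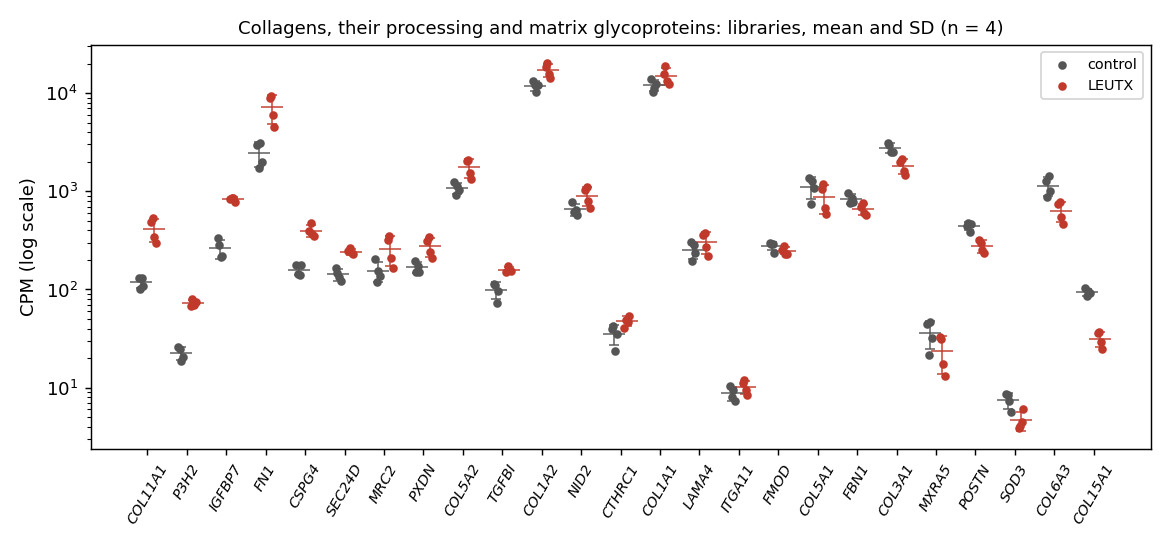
CPM on a log scale of the 25 readable collagen, collagen-processing and matrix glycoprotein genes in each of 4 control (gray) and 4 LEUTX (red) libraries, with the mean and SD, ordered by fold change from the largest increase to the largest decrease. COL11A1, P3H2, IGFBP7 and FN1 stand at the rising end, and COL15A1 and COL6A3 at the falling end.

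Of 17 enzymes of amino acid and central carbon metabolism, 10 rose, 1 fell and 6 did not pass. ACY1, aminoacylase-1, had 15.5, 17.5, 13.1 and 16.1 CPM in controls and 67.8, 69.9, 71.1 and 75.3 CPM with LEUTX, a log2 fold change of 2.19 ± 0.11 (SE, edgeR adjusted p = 5.31e-11). BCAT2, the mitochondrial branched-chain aminotransferase, rose by 1.87 on the log2 scale, ASL, argininosuccinate lyase, by 1.72, and PDK2, an inhibitor kinase of pyruvate dehydrogenase, by 1.65. CKB, the brain-type creatine kinase, fell from 19.7 ± 4.50 to 9.23 ± 1.28 CPM. AARSD1, an alanyl-tRNA editing protein, had 1.62 ± 0.266 and 7.86 ± 1.67 CPM and missed the CPM threshold by a small margin, passing it when any single control library was left out.

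Lipid and phosphoinositide genes, a group not limited to enzymes, had 6 of 10 members upregulated and 0 downregulated. ESYT1, which tethers the endoplasmic reticulum to the plasma membrane, had 148, 149, 111 and 126 CPM in controls and 525, 593, 562 and 604 CPM with LEUTX. Every LEUTX library was more than 3 times the highest control. EPHX1, microsomal epoxide hydrolase, rose from 5.80 ± 0.517 to 28.1 ± 5.46 CPM. PLCD1, a phosphoinositide phospholipase C, and PLD2, a phospholipase D, rose by 0.78 and 0.69 on the log2 scale. Outside the groups described here, PRR5L, a partner of the mTORC2 kinase complex, rose from 9.33 ± 1.16 to 41.6 ± 3.35 CPM.

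Transcription factors and chromatin proteins had 4 of 16 members upregulated and 0 downregulated. ARNTL, the clock factor BMAL1, rose from 14.3 ± 0.972 to 36.7 ± 3.53 CPM, and CREB3L2, a membrane-bound factor of the secretory pathway, from 11.4 ± 1.94 to 24.6 ± 2.10 CPM. KLF2 and KAT2B rose by 0.63 and 0.70 on the log2 scale. SNAI2, a regulator of epithelial to mesenchymal transition, had 31.5 CPM in controls and 33.0 with LEUTX, with overlapping groups. Without the CPM threshold, EAF2 and MXD3 counted as downregulated, at 1.69 and 0.592 CPM and at 1.48 and 0.915 CPM.

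The mitosis and cell cycle group had 1 of 13 upregulated, 2 downregulated (1 with DESeq2 size factors) and 10 neither, with a median log2 fold change of -0.23. TOP2A, the topoisomerase of dividing cells, had 57.7, 47.4, 53.1 and 57.5 CPM in controls and 29.9, 27.9, 26.3 and 27.3 CPM with LEUTX. The groups were well apart, with a log2 fold change of -0.95 ± 0.10 (SE, edgeR adjusted p = 1.02e-06). PIMREG, a mitotic regulator, fell by 0.59 and missed the fold threshold with DESeq2, with DESeq2 size factors, under the replicate block and without control library 2 or 4 or LEUTX library 2 or 3. CDKN2C, an inhibitor of cyclin-dependent kinases, was the member that rose, from 6.39 ± 1.81 to 19.2 ± 2.39 CPM.

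Of 9 readable genes in a list on blastocyst structure, which the study drew from genes raised by ARGFX or LEUTX in these same libraries, 6 rose, 2 fell and 1 did not pass. ACTG2, SMTN, MYADM, PXDN, COL5A2 and PLD2 rose, COL15A1 and COL6A3 fell, and CTHRC1 had 35.2 and 47.6 CPM. The direction of that list is not independent evidence. TYK2, a Janus kinase, was the single readable member of the JAK/STAT group and rose from 20.1 ± 4.24 to 38.7 ± 3.77 CPM. Interferon-stimulated genes and pluripotency factors had no identifier with a symbol and were not analysed here.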

How the data were processed

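RNA-seq of 15 libraries was deposited as 1 table of expected counts, which the authors estimated with kallisto 0.46.1 from an ARS-UCD1.2 transcript set extended by ETCHbox sequences and summed per gene with tximport. The table holds 21665 genes and is not normalized. Estimated counts were rounded to integers and tested in edgeR 4.0.16 (R 4.3.3) with filterByExpr, TMM and the quasi-likelihood test, in 1 fit to all 15 libraries, with Benjamini-Hochberg adjustment over 14264 genes. Of these, 10212 had a mean over 5 CPM, a threshold that stands in for one on mean TPM because transcript lengths were not used here. On simulated counts for LEUTX against control, with 200 of 14264 genes changed 2-fold, edgeR recovered 99% with 2 false calls and DESeq2 1.42.0 recovered 100% with 5. The 200 genes were drawn from those above the CPM threshold in controls, with equal numbers up and down. Recovery of genes at or below that threshold, or with as many changed genes as in the data, was not tested.

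Columns were matched to samples by their headers. A pair of WT ARGFX columns share a header and were used without a number. Symbols came from the ETCHbox rows and from 220 identifiers paired with symbols in a supplementary table of the study. The comparisons in that table (fold changes and p-values) were not used. A RefSeq gene table matched 0 identifiers, so a planned promoter motif count was not run. The members and gene lists were chosen with earlier results of these data known. Genes named were LEUTX and the other ETCHbox genes, the 15 largest called increases and decreases with a symbol, up to 5 members per list by size of change, and of genes without a symbol the most abundant 2 switched on and 2 shut off. Other list members are given as examples and were chosen after their values were seen. Some genes and a gene list are not reported here. Intervals and floors cover counting error only.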

Additional observations from a re-analysis of the deposited data

Results flagged for a closer look

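Among 129 groups of 4 values examined for the named genes, 2 held a value far from the rest of its group, where chance alone gives about 6.45. TUBB2B had 86.9 CPM in control library 3 against 120 to 126 CPM in the other controls. ETV2, which encodes an ETS transcription factor, had 5.46 CPM in LEUTX library 4 against 3.81 to 4.04 CPM in the other LEUTX libraries.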

How the results depend on the processing

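The counts of 1177 up and 1239 down became 671 and 699 when tested against a fold of 1.5 with glmTreat, 2455 and 2719 without a fold threshold, and 1827 and 1990 without the CPM threshold. Leaving out 1 library at a time gave 1188 to 1253 up and 1203 to 1271 down, and DESeq2 gave 1241 and 1191. The 19 genes on and 18 off became 8 and 6 when 0 counts were required, 51 and 28 at up to 10 silent and at least 30 expressed counts, and 3 and 9 at a mean of at least 5 CPM, with 19 to 25 on and 16 to 21 off without a library. Grouping by the mean of both conditions changed the share under 0.1 CPM to 0% up and 10% down (10 genes), the share down at 0.1 to 1 CPM to 15.8%, and those over 500 CPM to 22.1% up and 8.77% down. Without a filter on low counts, 6.76% were up and 0.271% down under 0.1 CPM and 11.7% were up at 0.1 to 1 CPM. Without the CPM threshold, 2 transcription factors were down, and with DESeq2 size factors 1 gene of the mitosis and cell cycle group was down. Of the values for 63 named genes over 12 settings, 737 kept direction and side of the threshold, 12 lost the call, 7 gained it and 0 reversed. The 2 scalings differed by 0.02 in the median log2 fold change.

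Same-numbered control and LEUTX libraries correlated at -0.21 to 0.16 in their deviations from group means. Of the 4 controls, 1 correlated best with its own number, so the numbers gave no pairing. Libraries with different numbers reached 0.40, for control 3 with LEUTX library 1, and -0.41, for control 3 with LEUTX library 4. Library variation shared by the groups was not tested further. A fit with the replicate block gave 1191 up and 1236 down.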
